A study of Mus musculus with 20 samples.

Results

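The 81 genes described here had a mean at least 2-fold lower in microglia of the injured mouse spinal cord at 72 h than in non-injured cord. Their mean over all samples of 1 and 2 weeks after injury was back near the non-injured level, though not in every later group. The genes were chosen from their own measured levels. For each gene, log2(mean CPM + 0.5) was taken over the 3 non-injured (NI) samples, the 6 samples at 72 h and the 11 samples at 1 and 2 weeks, where CPM is the read count of a gene as the authors scaled it to library size. A member had a mean of at least 2 CPM in NI, a difference of -1 or lower between 72 h and NI, and a difference above -0.3 between the later samples and NI. Of 16810 genes in the table, 12087 had at least 2 CPM in NI and 584 of these were at least 2-fold lower at 72 h. The 81 members are 0.67% of the 12087 genes. The return limit was met by 82 of the 584 genes (14.04%), and *Junb* was left out because symbols starting with Fos, Jun, Egr, Hsp, Dnaj, Atf3, Ier, Nr4a or Plk3 were not admitted. Another 483 genes without such a symbol fell as far and were still below the return limit later. Levels against NI, and between 72 h and later samples, chose the members and are therefore given as description, with no test. Where a gene is said to have fallen, its mean at 72 h was at least 2-fold lower, which is a statement of size.

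Microglia are the resident macrophages of the central nervous system. In undamaged tissue they depend on transforming growth factor beta and on colony stimulating factor 1 signals and express a characteristic set of surface receptors. Injury turns many of these genes down while proliferation and inflammatory genes are turned on, and part of the programme returns as the acute phase passes. Immediate-early genes such as *Fos* and *Egr1* respond within minutes to stimulation.

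All samples came from adult male CX3CR1+/eGFP mice on a C57BL/6 background, heterozygous for an enhanced green fluorescent protein placed at the *Cx3cr1* locus, and cells with high eGFP were sorted from a stretch of thoracic cord around the lesion or the matching stretch of NI cord. The lesion was a lateral hemisection (HS) or a full transection (FT) at the ninth thoracic level. Each group had 3 samples, except the HS group of 1 week, which had 2. The methods count more mice than libraries, so that a library is taken to hold RNA of several animals, and *Cx3cr1* also drives eGFP in monocytes, so that macrophages from blood may be in the sort. All 15 genes of a list of defining microglial markers were in the table. Over the 20 samples their summed level ran from 23633 CPM in FT 1 week replicate 1 to 45619 CPM in FT 1 week replicate 2. The genes of the table took 3872918 to 34099232 reads per sample, and 1 read was worth 0.0330 to 0.292 CPM. FT 1 week replicate 1, HS 1 week replicate 2, FT 2 weeks replicates 1 and 2 and NI replicate 1 stood apart for some of the members. Results without them are given for some members, with these samples left out singly or along with others. Without FT 2 weeks replicate 1 alone, 95 genes met the limits, 79 of them members. A library pools many cells, so fewer cells of a type and less RNA per cell cannot be told apart.

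The median difference between 72 h and NI over the members was -1.10 on the log2 scale (-2.29 to -1.001), beside 0.01 over all genes with at least 2 CPM in NI and -0.09 over the whole table. Between the later samples and NI it was -0.14 (-0.30 to 0.77), and 24 members ended above their NI mean. Taken by lesion, all 81 members had a lower mean at 72 h than in NI after HS and after FT, with medians of -1.08 and -1.13. The fall was at least 2-fold in 53 members after HS and in 64 after FT. At 1 week the medians were -0.05 after HS and -0.19 after FT, and at 2 weeks they were -0.16 and -0.22. The return limit was set on the pooled later mean, and single groups met it less often. Within 0.3 of NI lay 44 members at 1 week after HS and 42 after FT, and 55 and 37 at 2 weeks. At least 2-fold lower than NI were still 2 members at 1 week after FT and 1 at 2 weeks after HS. In 63 of the 81 members all 6 samples at 72 h lay under all 3 NI samples, as they did in 16.2% of all genes and 18.1% of those with at least 2 CPM in NI. In 21 members they lay under all 11 later samples, against 1.39% of all genes. Both shares follow from the choice of members. NI levels ran from 2.10 to 131 CPM. Per kilobase of merged exon, the scale on which genes can be compared, the median NI level was 4.25 CPM for members and 4.22 CPM for all genes with at least 2 CPM in NI.

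The members that fell furthest were not all alike across samples. *Zfp619*, which encodes a zinc finger protein, had 109 CPM in NI replicate 1 and 9.52 and 7.58 CPM in the other NI samples. It had 274 CPM in HS 1 week replicate 1, 89.7 CPM in FT 2 weeks replicate 1 and 3.24 to 20.1 CPM in every other injured sample. Its difference of -2.29 at 72 h was -0.06 without NI replicate 1, and its later difference of -0.10 was -1.38 without HS 1 week replicate 1. It also missed the return limit without NI replicate 2 or NI replicate 3, at -0.56 and -0.59. *Bckdhb*, a subunit of the branched-chain keto acid dehydrogenase, had 9.41, 10.6 and 13.6 CPM in NI. The 6 samples at 72 h ran from 2.45 to 4.92 CPM and the later ones from 4.59 to 13.1 CPM, a difference of -1.56 at 72 h and -0.23 later. *Usp35*, a deubiquitinase, had 70.8, 126 and 122 CPM in NI. At 72 h it had 24.8 to 52.9 CPM, below every NI and every later sample (68.2 to 129 CPM).

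Several members returned with little overlap between times. *Fbrsl1*, a relative of the Polycomb-associated protein AUTS2, had 35.3, 31.5 and 35.8 CPM in NI. Its samples at 72 h had 10.1, 11.9 and 14.6 CPM after HS and 11.98, 15.5 and 13.9 CPM after FT. The later ones lay between 26.9 and 52.1 CPM, above all samples at 72 h. *Hs6st1*, which adds 6-O-sulfate to heparan sulfate chains, had 62.3, 61.0 and 63.0 CPM in NI, 26.0 to 30.8 CPM at 72 h (median 28.6) and 45.3 to 60.5 CPM later (median 49.9). The 3 ranges did not overlap, and the later samples remained under NI. *Tnni3*, the inhibitory troponin of heart muscle, had 4.77, 5.02 and 5.28 CPM in NI and 0.876 to 3.48 CPM at 72 h. All 11 later samples, at 5.57 to 11.8 CPM, were above all NI samples, and the difference from NI was 0.59 in log2. *Tlr12*, a Toll-like receptor for profilin of protozoa, had 21.6 to 22.7 CPM in NI, 4.74 to 16.4 CPM at 72 h and 18.2 to 39.2 CPM later. *Tns1*, a tensin that links integrins to actin, had 93.0, 108 and 123 CPM in NI, 42.9 to 76.3 CPM at 72 h and 88.2 to 146 CPM later. *Gigyf1*, which binds the adaptor GRB10, and *Cyp27a1*, the sterol 27-hydroxylase, also had all 6 samples at 72 h below all others (32.4 to 54.9 against 58.1 to 99.5 CPM, and 14.6 to 39.1 against 47.5 to 72.5 CPM). *Sema4g*, *Zbtb48* and *Tspyl2*, which encode a semaphorin, a telomere-binding zinc finger protein and a nucleosome assembly protein, fell by 1.32, 1.19 and 1.26 in log2 and behaved likewise. *Tnni3*, *Tlr12* and *Zbtb48*, like other members named outside the set rule, were singled out after their values were seen.

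**Figure D1:**
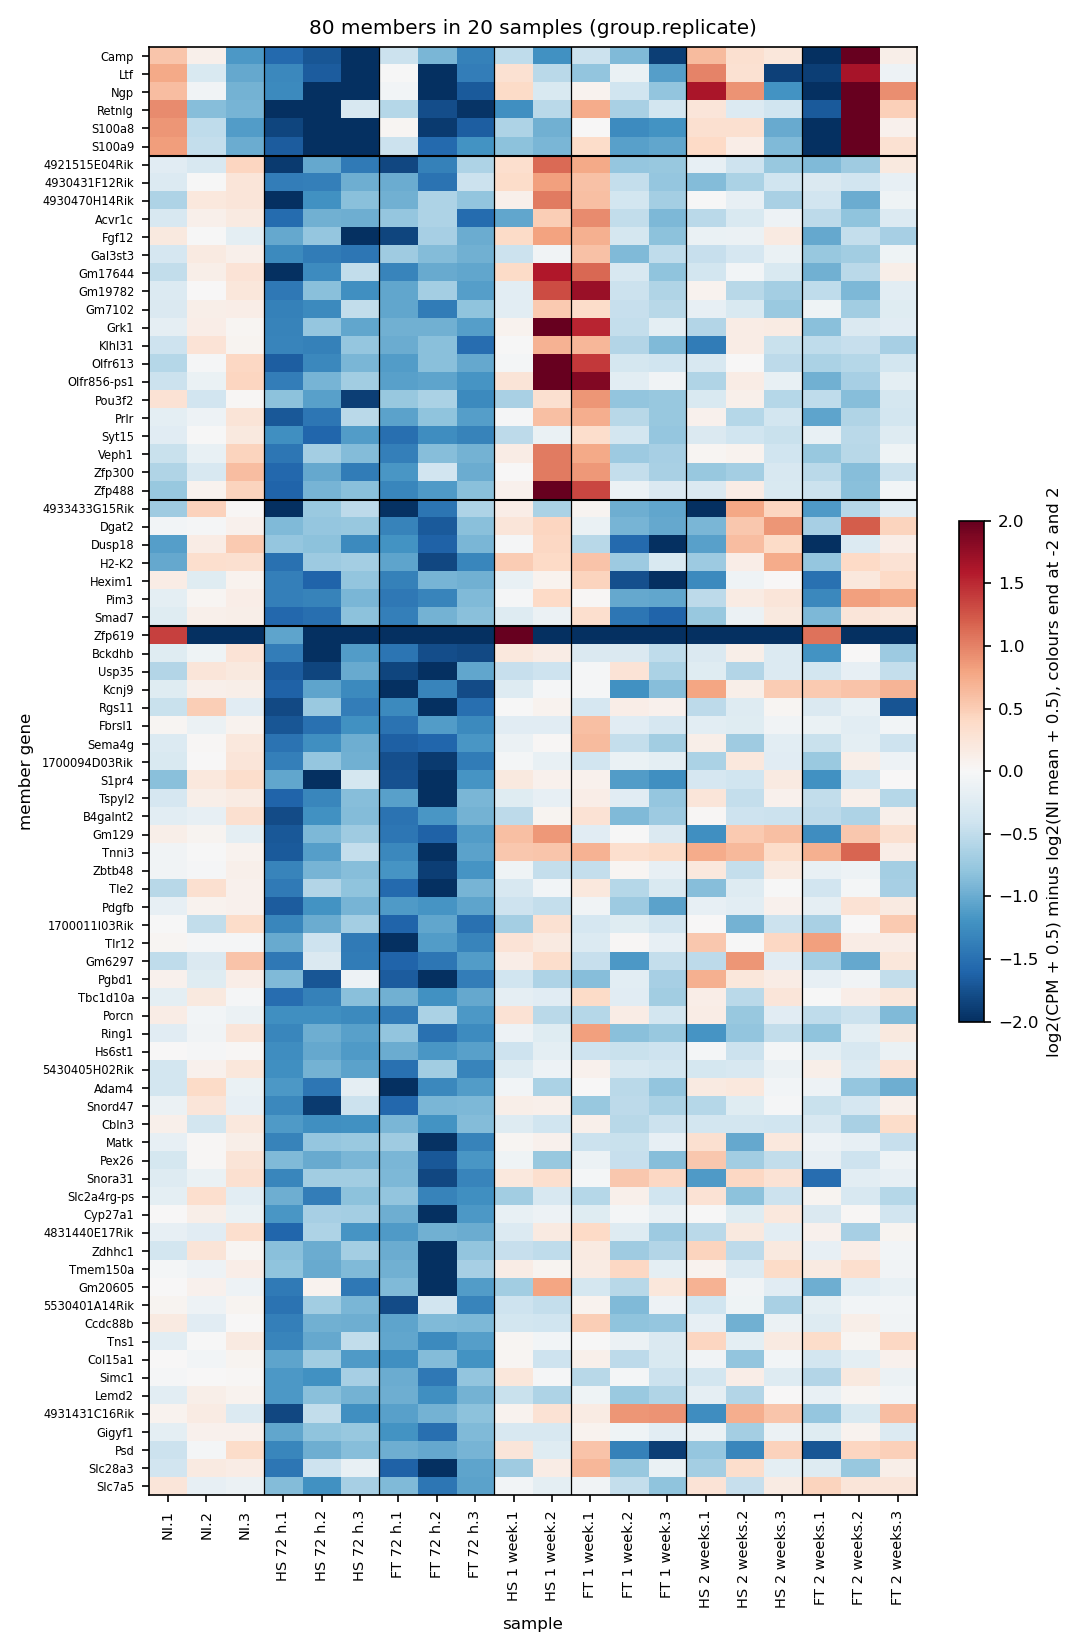
Rows are 80 of the 81 members and columns the 20 samples, with colour giving log2(CPM + 0.5) minus the log2 of the NI mean plus 0.5, red above NI and blue below, with colours ending at -2 and 2. The upper blocks, split off by lines, are the 6 neutrophil marker genes, the 19 genes highest in HS 1 week replicate 2 and FT 1 week replicate 1, and the 7 genes lowest where immediate-early genes were lowest. Nearly all cells at 72 h are blue, with a few pale ones such as *S100a8* in FT 72 h replicate 1 and *Gm20605* in HS 72 h replicate 2.

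Among members that send or receive signals, *Pdgfb*, the B chain of platelet-derived growth factor, had 117, 137 and 138 CPM in NI. It had 41.2, 57.1 and 68.5 CPM at 72 h after HS and 59.7, 57.5 and 62.5 CPM after FT. At 1 week it had 97.9 and 93.9 CPM after HS, and 124, 79.2 and 61.7 CPM after FT. At 2 weeks the values were 116, 113 and 139 CPM after HS and 115, 160 and 149 CPM after FT, so that only at 1 week after FT did a later sample come down to the range at 72 h. *Kcnj9*, the GIRK3 subunit of G protein-gated potassium channels, had 3.04, 3.99 and 4.03 CPM in NI, 0.859, 1.51 and 1.23 CPM at 72 h after HS and 0.374, 1.17 and 0.712 CPM after FT. At 1 week it had 3.00 and 3.61 CPM after HS and 3.63, 1.32 and 1.81 CPM after FT. At 2 weeks all 6 samples, with 6.71, 4.06 and 5.43 CPM after HS and 5.52, 5.75 and 6.19 CPM after FT, lay above all NI samples. *Rgs11*, a regulator of G protein signalling, had 5.90 to 11.8 CPM in NI, 0.584 to 4.71 CPM at 72 h and 2.14 to 9.13 CPM later, where only FT 2 weeks replicate 3 was low. *S1pr4*, a sphingosine 1-phosphate receptor of blood cells, overlapped NI at 72 h (0.292 to 2.46 against 1.61 to 4.32 CPM). In FT 72 h replicates 1 and 2, 1 read was worth 0.125 and 0.292 CPM. Few reads thus stand behind the lowest values of *Kcnj9*, *Rgs11* and *S1pr4* at 72 h. *Slc7a5*, the light chain of the LAT1 amino acid transporter, had 29.7 to 39.7 CPM in NI, 11.98 to 20.9 CPM at 72 h and 18.9 to 45.9 CPM later. *Matk*, a kinase that inhibits Src family kinases, had a difference of -1.08 at 72 h and -0.15 later.

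*Ring1*, the catalytic ubiquitin ligase of Polycomb repressive complex 1, had 5.60 to 7.96 CPM in NI, 2.04 to 3.62 CPM at 72 h and 2.65 to 12.1 CPM later. All its samples at 72 h lay below all NI samples, with later samples on either side. *Tle2*, a Groucho corepressor, had 3.75 to 7.34 CPM in NI and 0.584 to 3.67 CPM at 72 h, and *Lemd2*, a protein of the inner nuclear membrane, 33.2 to 41.7 CPM and 16.1 to 21.3 CPM. *Simc1*, which binds SUMO chains, was steady in NI at 12.5 to 12.8 CPM and had 4.38 to 7.79 CPM at 72 h and 8.24 to 14.8 CPM later. *Tbc1d10a*, a GTPase-activating protein for Rab proteins, had 24.3 to 31.8 CPM in NI, 9.31 to 15.4 CPM at 72 h and 16.9 to 36.3 CPM later. *Pex26*, which anchors peroxisome import factors, had 4.47 to 7.10 CPM in NI, 1.46 to 2.94 CPM at 72 h and 2.996 to 8.73 CPM later. *Porcn*, which acylates Wnt ligands, had 5.66 to 6.91 CPM in NI, 2.00 to 3.80 CPM at 72 h and 3.13 to 7.62 CPM later, so that its later samples reached into the range at 72 h. *Col15a1*, a collagen of basement membranes, had 15.2 to 16.5 CPM in NI, 6.49 to 9.61 CPM at 72 h and 8.98 to 17.0 CPM later. At the low end, *Acvr1c*, the activin receptor ALK7, had 1.91 to 2.88 CPM in NI and 0.528 to 1.46 CPM at 72 h, and *Fgf12*, an intracellular fibroblast growth factor homologue, had 2.21 to 3.04 CPM and 0 to 1.46 CPM, where few reads stand behind each value. The lowest values of *Tle2* and *Pex26*, in FT 72 h replicate 2, also rest on few reads.

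Genes of a neutrophil marker list formed one block. *Ngp*, *S100a8*, *S100a9*, *Camp*, *Ltf* and *Retnlg* encode neutrophilic granule protein, both chains of calprotectin, cathelicidin, lactoferrin and a resistin-like protein. They were 6 of the 10 genes on a list of neutrophil markers. Summed, the 6 genes had 101, 45.7 and 26.7 CPM in NI, 17.3, 11.3 and 9.43 CPM at 72 h after HS and 52.3, 13.1 and 18.2 CPM after FT. At 1 week the sum was 48.5 and 34.2 CPM after HS and 60.0, 32.8 and 26.7 CPM after FT. At 2 weeks it was 107, 78.5 and 29.95 CPM after HS and 5.99, 278 and 76.2 CPM after FT, so that the lowest and the highest of the 20 samples were replicates of one group. None of the 6 genes had all samples at 72 h under all NI samples. In all 6 the highest later sample was FT 2 weeks replicate 2 and the lowest FT 2 weeks replicate 1, a pair of extremes that 0.927% of the genes with at least 2 CPM in NI had. Without FT 2 weeks replicate 2, 3 of the 6 still met the limits, and without NI replicate 1 only *Ngp* did. Of the other genes on that list, *Mmp9* fell from 5.26 to 1.65 CPM and had 2.25 CPM later, *Cxcr2* had 15.7, 8.29 and 11.8 CPM, *Csf3r* 728, 538 and 807 CPM and *Mmp8* 2.29, 3.45 and 3.06 CPM as means in NI, at 72 h and later. The whole list summed to 779 to 838 CPM in NI, 465 to 657 CPM at 72 h after HS, 517 to 629 CPM after FT and 659 to 1092 CPM later, most of it *Csf3r*. *Camp* was at 0 in HS 72 h replicate 3. The part of neutrophils in these values was not tested.

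*S100a8* and *S100a9* lie 22.6 kb apart on chromosome 3, on opposite strands, and had the same order of extremes. Their promoters, from 250 bases before to 50 after the RefSeq start site in GRCm38.p6, are shown to set these neighbours side by side. Capitals mark the TATA box (TATAAA on either strand), which 7.43% of the promoters of genes with at least 2 CPM in NI held. It starts at position -30 in *S100a8* (chr3:90668821-90669120, plus strand) and at position 1 of the annotated start in *S100a9* (chr3:90695672-90695971, minus strand).
S100a8: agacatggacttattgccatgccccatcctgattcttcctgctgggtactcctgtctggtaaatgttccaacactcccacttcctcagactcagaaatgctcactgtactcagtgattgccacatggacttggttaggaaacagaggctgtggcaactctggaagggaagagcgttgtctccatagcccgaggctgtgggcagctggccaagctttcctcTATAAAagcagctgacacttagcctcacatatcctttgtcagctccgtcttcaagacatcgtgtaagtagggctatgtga
S100a9: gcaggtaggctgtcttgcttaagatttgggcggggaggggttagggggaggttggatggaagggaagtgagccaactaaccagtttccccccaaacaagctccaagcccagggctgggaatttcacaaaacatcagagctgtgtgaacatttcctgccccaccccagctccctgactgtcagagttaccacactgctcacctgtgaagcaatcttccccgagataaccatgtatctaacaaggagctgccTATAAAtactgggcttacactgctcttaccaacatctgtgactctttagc

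A second block of 19 members had its 2 highest later samples in HS 1 week replicate 2 and FT 1 week replicate 1, as did 4.01% of the genes with at least 2 CPM in NI. *Olfr856-ps1*, a pseudogene of the olfactory receptors, had 16.6, 20.3 and 30.4 CPM in NI and 8.32 to 13.7 CPM at 72 h. In HS 1 week replicate 2 and FT 1 week replicate 1 it had 170 and 82.8 CPM, and in the other 9 later samples 11.3 to 27.0 CPM. *Olfr613*, an olfactory receptor, had 139 and 92.3 CPM there against 23.0 to 45.9 CPM in NI. *Zfp488*, a zinc finger protein of oligodendrocyte development, had 275 and 156 CPM against 36.3 to 84.6 CPM in NI. *Grk1*, the rhodopsin kinase, had 39.2 and 21.7 CPM against 6.32 to 7.98 CPM in NI. *Gm17644*, *4930470H14Rik* and *Gm19782* reached 128, 155 and 15.4 CPM in the first and 92.7, 114 and 20.7 CPM in the second of these libraries. The 65 other Olfr symbols of the table, which are no members, summed to 138 CPM in FT 1 week replicate 1 and 97.2 CPM in HS 1 week replicate 2, the highest of the 20 samples, beside 47.8 to 90.7 CPM in the rest. With both libraries left out, a setting chosen after seeing the data, 62 genes met the limits, 55 of them members, and 6 of the 19 genes of this block were kept.

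Another block of 7 members, *Smad7*, *Hexim1*, *Pim3*, *Dusp18*, *Dgat2*, *H2-K2* and *4933433G15Rik*, was low in the 4 later samples where immediate-early genes were lowest. *Fos*, *Fosb*, *Jun* and *Egr1*, which fell but did not meet the return limit (later differences from NI of -0.44, -0.72, -1.17 and -0.53) and are no members, summed to 483 and 699.9 CPM in FT 1 week replicates 3 and 2, 399 CPM in FT 2 weeks replicate 1 and 967 CPM in HS 2 weeks replicate 1. The sum was 3037 to 6189 CPM in the other 7 later samples, 3105 to 5444 CPM in NI and 1461 to 2236 CPM at 72 h. *Smad7*, the inhibitory Smad that limits transforming growth factor beta signals, had 45.05, 57.5 and 58.4 CPM in NI and 17.7 to 30.1 CPM at 72 h. In the same 4 samples it had 17.3, 19.3, 28.5 and 31.5 CPM, and in the other later samples 44.9 to 67.5 CPM. *Hexim1*, which holds the elongation factor P-TEFb inactive, had 18.02 to 23.9 CPM in NI, 6.78 to 12.3 CPM at 72 h, 3.31, 6.03, 7.30 and 8.58 CPM in those 4 samples and 19.3 to 29.6 CPM in the others. *Pim3*, a serine/threonine kinase, had 12.1 to 15.3 CPM in NI, 4.87 to 7.30 CPM at 72 h, 6.54, 6.58, 5.43 and 9.51 CPM in the 4 and 13.8 to 24.9 CPM in the others. *Dusp18*, a dual-specificity phosphatase, had 3.39, 7.97, 5.24 and 11.2 CPM in them and 16.4 to 37.8 CPM elsewhere among the later samples. The same 4 samples were the lowest in 2.37% of the genes with at least 2 CPM in NI. *Psd*, an exchange factor for ARF6, was also low in FT 1 week replicates 2 and 3 and FT 2 weeks replicate 1 (4.33, 2.84 and 3.28 CPM). Without the 4 samples, a setting chosen after seeing the data, 137 genes met the limits, with 77 of the members among them. The part of immediate-early activation in these values was not tested.

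**Figure D2:**
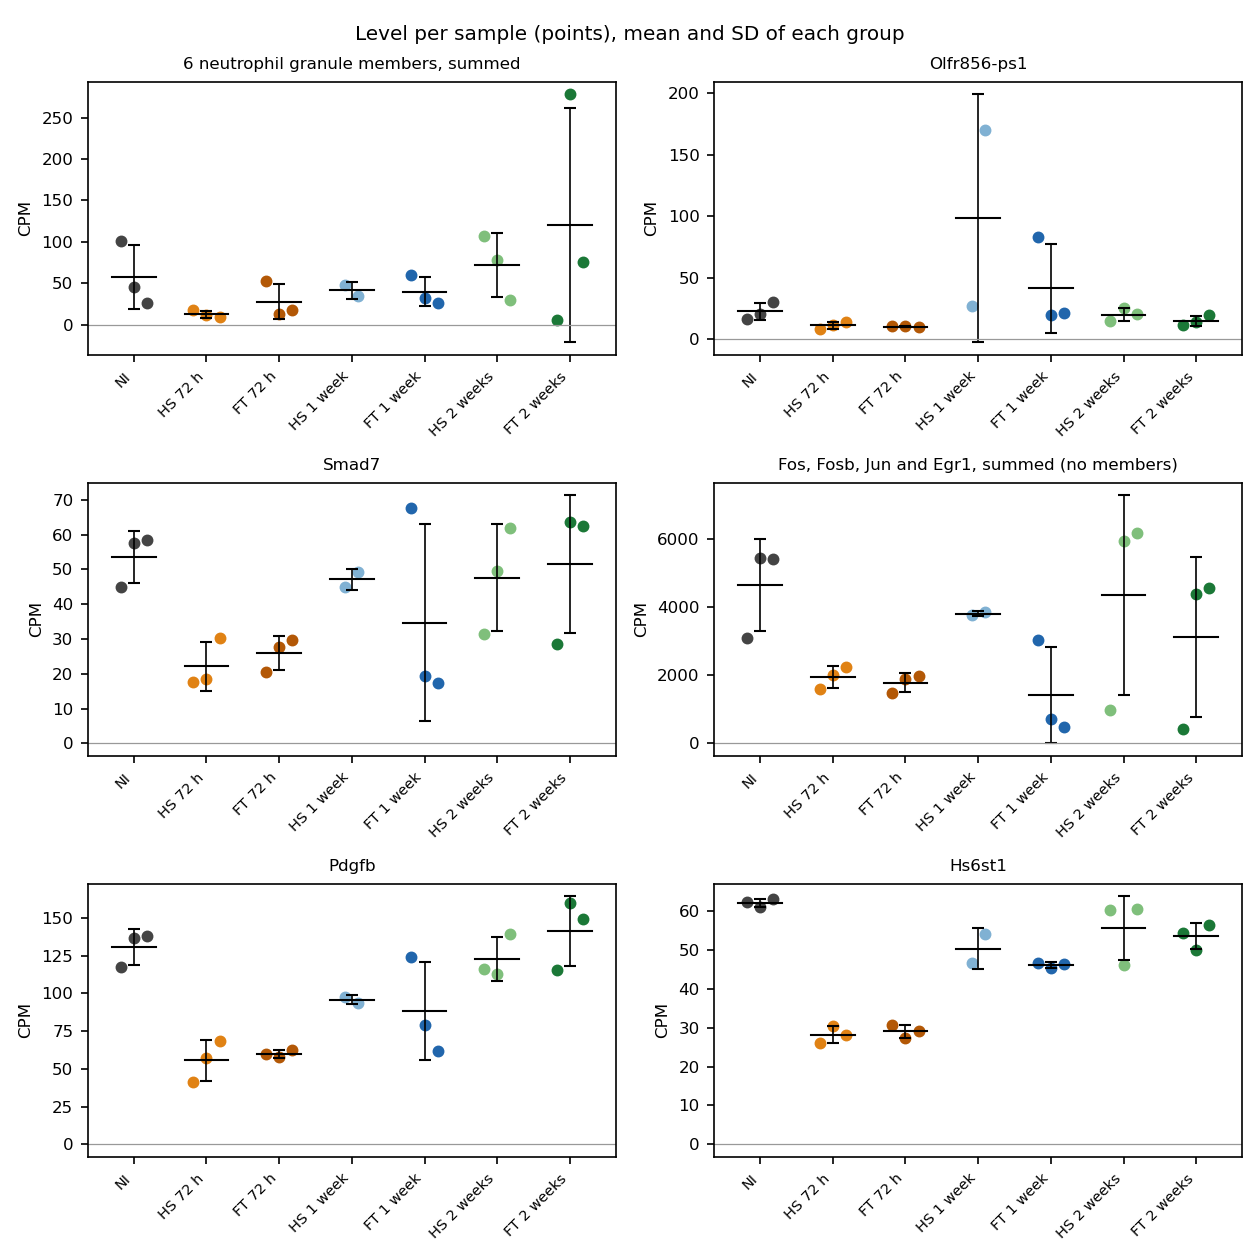
Points give CPM in each sample by group, the horizontal bar the group mean and the error bar its SD (n = 3, or 2 for HS 1 week). Panels show the summed neutrophil marker genes (titled granule members), *Olfr856-ps1*, *Smad7*, the summed immediate-early genes, *Pdgfb* and *Hs6st1*. The neutrophil marker sum spreads from 5.99 to 278 CPM within FT 2 weeks, and *Olfr856-ps1* is raised by single samples at 1 week. *Smad7* splits in the same samples as the immediate-early sum, and *Hs6st1* stays close within each group.

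*Ciart* (listed under its older symbol *Gm129*), a repressor of the CLOCK and BMAL1 activators, was the only member on a list of 21 circadian clock genes, of which *Hlf* and *Per1* also fell 2-fold and stayed lower. It had 13.8, 13.3 and 11.03 CPM in NI, 3.57, 6.60 and 7.59 CPM at 72 h after HS and 4.37, 3.80 and 5.61 CPM after FT. Later it ran from 5.05 CPM in FT 2 weeks replicate 1 and 5.15 CPM in HS 2 weeks replicate 1 to 23.5 CPM in HS 1 week replicate 2 (median 16 CPM). Its promoter (chr3:95882179-95882478, minus strand, GRCm38.p6 from RefSeq) is shown because it held 3 copies of the E-box CACGTG, in capitals, to which CLOCK and BMAL1 bind.
Ciart: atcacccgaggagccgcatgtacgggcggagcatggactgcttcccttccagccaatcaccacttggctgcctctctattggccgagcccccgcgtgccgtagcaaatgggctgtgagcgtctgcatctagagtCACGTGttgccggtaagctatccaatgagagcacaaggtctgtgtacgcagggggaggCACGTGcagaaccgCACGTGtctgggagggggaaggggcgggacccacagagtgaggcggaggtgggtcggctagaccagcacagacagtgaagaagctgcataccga
At least 3 E-boxes stood in 0.129% of the 12362 promoters of genes with at least 2 CPM in NI, and at least 1 in 9.91%. Promoters were found for 61 of the 81 members (73 promoters). Of these promoters, 4.11% held an E-box, none the full cyclic AMP response element TGACGTCA (2.96% of all), 15.1% its core TGACG (30.5%), which every full element also holds, and 4.11% the AP-1 site TGANTCA (5.12%). The CArG box, CC and GG around 6 bases of A or T, stood in 2.74% (1.23%), the glucocorticoid core ACANNNTGT in 6.85% (4.30%), the FOXO site GTAAACA in 4.11% (2.58%) and the PU.1 site GAGGAAGT in 4.11% (3.12%). The kappa B core, 3 G and 2 C around 5 bases of any kind, stood in 56.2% (65.8%) and the D-box, sought as TTA, C or T, and GTAA, in 1.37% (0.696%). All motifs were sought on both strands, and a match describes letters only.

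Of 31 gene lists with 501 genes in the table, 8 members stood in any list. *Smad7* was the only member of 29 genes of transforming growth factor beta and BMP signalling, of which it alone fell 2-fold. The receptor *Tgfbr1* had means of 1089 CPM in NI, 595 CPM at 72 h and 979 CPM later, and *Tgfbr2* 297, 274 and 385 CPM. Of 38 homeostatic microglial genes, 6 fell 2-fold, and *Smad7* alone met the return limit, while *Tmem119*, *Upk1b*, *Cst3*, *Lrba* and *Tanc2* stayed lower. The 8 immediate-early and stress genes, 9 neuronal, 11 astrocytic and 5 oligodendrocytic markers that fell 2-fold all stayed lower, so that these lists held no member. The summed astrocytic list had 779 to 1479 CPM in NI, 446 to 1053 CPM at 72 h and 225 to 629.95 CPM later. The neuronal list had 125 to 183 CPM in NI and 104 to 156 CPM at 72 h, and the oligodendrocytic list overlapped between NI (3362 to 5831 CPM) and 72 h (3738 to 5852 CPM). The monocyte list, which held no member either, had a sum of 192 to 268 CPM in NI and 764 to 1484 CPM at 72 h, and the part of such cells in the members' values was not tested. The median differences at 72 h over these lists, -0.43, -0.72, -1.04 and -0.72, stood beside -0.09 over the whole table.

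The rule pooled both lesions and both later times, and differences within those pools were tested. The tests used limma on log2(CPM + 0.5) in all 20 samples, with Benjamini-Hochberg adjustment over 16810 genes. They are not wholly free of the choice, since a member can meet the return limit through high samples of single groups. Of the 19 members highest in HS 1 week replicate 2 and FT 1 week replicate 1, 13 missed the limits without both. A gene was called at an adjusted p under 0.05 and a change of at least 2-fold. FT against HS asked whether the severity of the lesion altered these genes. At 72 h 0 of 81 members were called (0% of all genes), with 5 members at an unadjusted p under 0.05 beside 3% of all genes. There edgeR and DESeq2 called 0 members and 0 of all genes as well. At 1 week limma called 0 members (0% of all genes), with 7 of 81 at an unadjusted p under 0.05 beside 724 of 16810 genes (4.31%). At 2 weeks it called 0 (0% of all genes), with 0 beside 2.61%. The other tools called 0 members at these times too. Over all genes edgeR called 0 at both times, and DESeq2 called 7 (0.0416%) at 1 week and 1 (0.00595%) at 2 weeks. The median difference of the members, FT minus HS, was -0.05, -0.18 and -0.02 at the 3 times, beside -0.01, -0.01 and 0.01 over all genes. The smallest unadjusted p of a member in these comparisons was that of *Dusp18* at 1 week (16.4, 7.97 and 3.39 CPM after FT, 24.1 and 32.6 CPM after HS), at -1.79 (standard error 0.61, 95% interval -3.07 to -0.52, limma adjusted p = 0.999).

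Between 2 weeks and 1 week limma called 0 members after HS (0.0119% of all genes), 0 after FT (0.0714%) and 0 in the mean over both lesions (0.113%). At an unadjusted p under 0.05 in limma there were 11, 7 and 16 of 81 members. Over all 16810 genes there were 789, 773 and 1175 (4.69%, 4.6% and 6.99%). The members' counts cannot be read as a trait of the members, since the return limit can favour genes with high samples at 1 week. The members compared include the 19 genes with their 2 highest later samples at 1 week, and the part of their choice in these counts was not tested. After HS, edgeR and DESeq2 also called 0 members, beside 1 and 4 of all genes (0.00595% and 0.0238%). *Kcnj9* was higher at 2 weeks after FT by 1.29 in log2 (standard error 0.30, limma adjusted p = 0.224), with all 3 samples at 2 weeks above all 3 at 1 week, and by 0.95 in the mean over both lesions (standard error 0.23, limma adjusted p = 0.122). Over the alternatives its adjusted p ran from 0.0316 to 0.918 and from 0.0243 to 0.393. DESeq2, which called 33 genes (0.196%) after FT, and the fit without FT 1 week replicate 1 called it in both. *Olfr856-ps1* was lower at 2 weeks by 1.45 in log2 in the mean over both lesions (-1.45, standard error 0.38, limma adjusted p = 0.174, 0.00878 to 1.00 over the alternatives). edgeR called it, as 1 of 28 genes (0.167% of all genes), and DESeq2 called it along with *Grk1*, *Kcnj9*, *Olfr613* and *Zfp488*, among 54 genes (0.321%). The 4 genes of that group other than *Kcnj9* are those raised in HS 1 week replicate 2 and FT 1 week replicate 1. *Pdgfb* and *Slc7a5* were 0.72 and 0.76 higher at 2 weeks than at 1 week after FT (standard errors 0.22 and 0.23, limma adjusted p = 0.604 and 0.569). Samples of 2 or 3 per group set wide intervals: *Ngp* differed between times after FT by -0.03, with a 95% interval from -2.21 to 2.16, whereas *Hs6st1* differed by 0.21 with an interval from -0.10 to 0.52.

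**Figure D3:**
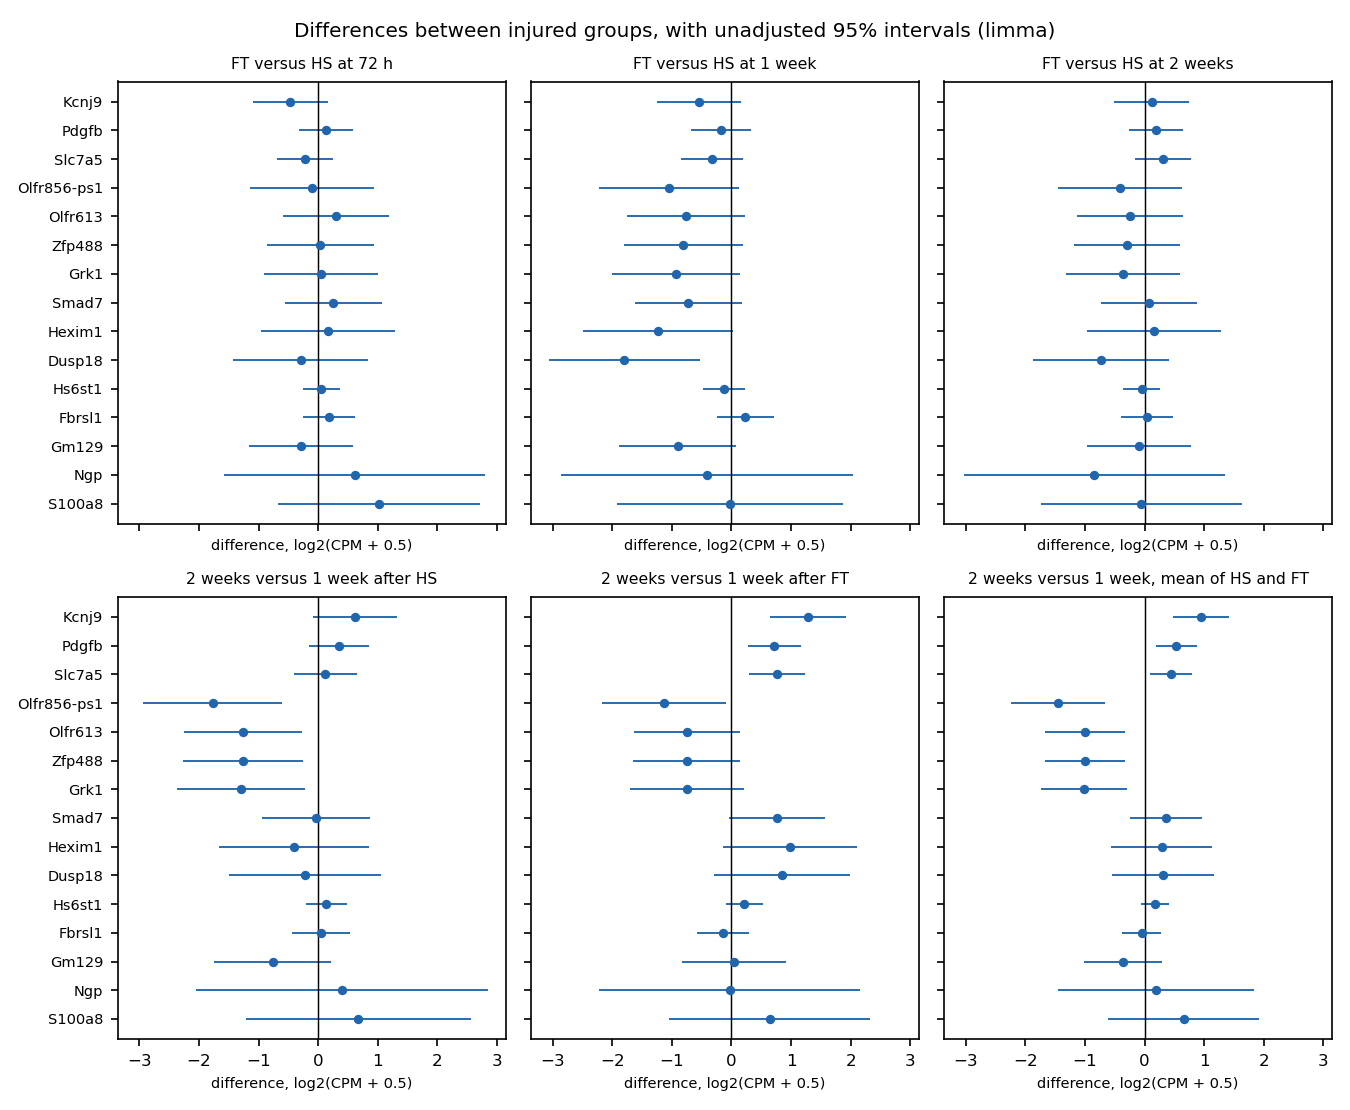
Each panel is one comparison between injured groups, with the difference in log2(CPM + 0.5) on the x axis for 15 named members on the y axis, points giving the limma estimate and bars its unadjusted 95% interval. No member passed the adjusted threshold; *Kcnj9* lies right of 0 and *Olfr856-ps1* left of 0 in the comparisons of 2 weeks with 1 week.

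By annotation (GENCODE, GRCm38), 80 of the 81 members were matched, and 65 (81.3%) were protein coding, beside 96.7% of the genes with at least 2 CPM in NI. Single-exon genes made up 10% against 2.44%. The median length of merged exons was 3.65 kb against 4.68 kb. Transcript GC content had a median of 51.2% in members and 49.2% in all, and 32 of 80 members lay in the quintile of genes richest in GC. That quintile had a median difference of -0.12 at 72 h, where the others had 0.03 to 0.08. Taken relative to the median of its GC quintile, a setting chosen after seeing the data, 74 genes met the limits, 58 of them members. Exons of 26 members overlapped those of another gene, a share that was not counted over all genes. Whether strand was used in the counting is not given in the sources used here, so the values of such genes are uncertain. *Gm20605* shares 67.9% of its exons with *Lrch4* and 26.9% with *Sap25*, on the same strand. *Snord47* lies wholly within the exons of *Gas5*, and 56.4% of the exons of *5430405H02Rik* are shared with *Tgif2*, which fell by 1.23 and had a difference of -0.53 later. Neighbouring members were *S100a8* and *S100a9*, *H2-K2* and *Ring1* (42.0 kb apart on chromosome 17) and *S1pr4* and *Tle2* (74.4 kb apart on chromosome 10). *Ring1* had a difference of -1.13 at 72 h and -0.29 later, and *Tle2* -1.18 and -0.26.

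Members lay close to each limit. *Snord47*, *Adam4* and *Snora31* had NI means of 2.10, 2.14 and 2.29 CPM, just inside, and *Slc25a29*, *Dnm3os* and *Has3* had 1.94, 1.92 and 1.92 CPM, just outside. *Slc7a5*, *Veph1* and *Slc28a3* had differences of -1.001, -1.002 and -1.005 at 72 h, while *Cybrd1*, *Stx19* and *B430010I23Rik*, just outside, had -0.996, -0.993 and -0.991. *Dusp18* and *Slc2a4rg-ps*, just inside, had later differences of -0.295 and -0.295 from NI, and *Nfkbie*, *Dusp1* and *Camk4*, just outside, had -0.303, -0.303 and -0.307. With each sample left out in turn, 15 members met the limits in all 20 cases: *Kcnj9*, *Ngp*, *Fbrsl1*, *Sema4g*, *4921515E04Rik*, *Ciart*, *Pim3*, *Tnni3*, *Zbtb48*, *Fgf12*, *Pdgfb*, *Tlr12*, *Pgbd1*, *Tbc1d10a* and *Hs6st1*. Of these 15, 7 also met the limits with the median of ratios, with quantile normalization and with columns scaled to 1 total. *Sema4g* and *4921515E04Rik* missed them with HS 1 week replicate 2 and FT 1 week replicate 1 left out together. By lesion, 19 members met the limits with the HS samples alone and also with the FT samples alone. *Pgbd1* met them with neither.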

How the data were processed

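Polyadenylated RNA of sorted microglia was sequenced in 20 samples. Per the labels and the study's methods, the authors removed reads with adapter sequence, mapped the rest with TopHat2 2.0.9 to mm10 (GRCm38), counted them per gene with HTSeq 0.5.4p3, kept genes with 10 reads in 2 replicates and normalised by library size with edgeR 3.3.6. The signal the authors deposited for 16810 genes is a scaled count. Its unit is not stated, and it is read here as CPM on a library size scaled by edgeR, since columns sum to 777426 to 1202190. All 336200 values (100%) were whole multiples of 1 step per column, within 0.001 step, so whole reads were recovered (3872918 to 34099232 per sample).

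Members and lists were chosen with earlier results of these data known. Tests used limma 3.58.1 with a trend (R 4.3.3), 7 group means and all samples. The alternatives were edgeR 4.0.16 or DESeq2 1.42.0 fitted to the recovered reads, other scalings, added values, filters, a replicate block and left-out samples. In simulated counts of 16810 genes limma called 40% of 2-fold and 97% of 4-fold changes for FT against HS at 72 h (with 13 unchanged genes). For 2 weeks against 1 week it called 25% and 97% after HS (with 9) and 37% and 99% after FT (with 0). The simulation gave every gene the same dispersion. These shares hold only for the simulated spread, which was not matched to the members. They do not say how often a change in a member would be called. In members with a wide spread between replicates, such as *Ngp* and *Dusp18*, a larger change can go uncalled. Named genes are the 20 largest falls, the 10 highest NI means, members in a gene list, 3 genes on each side of each limit and members past a test's threshold (0 were); others were named after their values were seen, and 1 member that the rule names is not reported here. Same-numbered HS and FT samples deviated together at 72 h (correlations 0.14, 0.27 and 0.18), whereas at 1 week the correlations were -0.30 and -0.39 and at 2 weeks 0.38, -0.0017 and -0.09. The methods call the replicates biological and do not say which animals made each library, and p-values measure the spread between these samples.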

Additional observations from a re-analysis of the deposited data

How the results depend on the processing

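The number of genes meeting the limits was 81. It was 128 with 0.1 CPM added (70 members kept), 52 with 1 CPM added (47 kept), 154 with HS samples only (45 kept), 91 with FT samples only (46 kept) and 137 without the 4 later samples lowest in immediate-early genes. With columns scaled to 1 total it was 166 (26 kept), where the median of all genes moved to -0.50 at 72 h and -0.27 later, as NI columns sum to 777426 to 830481 and injured ones to at least 878070. It was 67 with the median of ratios (67 kept), 91 with quantile normalization (48 kept), 78 with the mean of log2 values and 84 with the median of columns (63 and 35 kept). Leaving out each sample gave 60 to 117 genes, with 44 members kept without NI replicate 1 or NI replicate 3. No fall at 72 h changed sign in any alternative, which the choice of members for a fall of at least 2-fold largely sets. Members still past the fall limit ran from 47 with 1 CPM added and 49 without NI replicate 3 to 81 with columns scaled to 1 total. *Zfp619* came to -0.06 without NI replicate 1.

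In the main limma fit, the counts of members called were 0 in every comparison. Between 2 weeks and 1 week after FT, DESeq2 called 1 (33 of all genes). In the mean over both lesions edgeR called 1 (28 of all genes) and DESeq2 called 5 (54 of all genes). With each sample left out the limma counts were 0 to 1 in these comparisons (4 to 25 of all genes after FT and 6 to 26 in the mean), 1 without FT 1 week replicate 1 (*Kcnj9*) and 1 without HS 1 week replicate 1 (*Olfr856-ps1*). With the replicate block, 0 members were called in any comparison, so that pairing by number changed no member's call, while calls over all genes after FT went from 12 to 5. The cause of these changes was not tested. In the shallowest sample, with 3872918 reads, 1 read was worth 0.292 CPM.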
